A study of Mus musculus with 6 samples.

Results

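Vitamin D and retinoid signalling genes were examined in 4T1 mouse mammary carcinoma cells that had become resistant to axitinib and were then sorted by β-galactosidase activity. The set held 9 genes, given by name, of the 53465 genes in the deposited table: the vitamin D receptor gene Vdr, the retinoid X receptor genes Rxra and Rxrb, the retinoic acid receptor genes Rara, Rarb and Rarg, the vitamin D hydroxylase genes Cyp27b1 and Cyp24a1, and the retinoic acid carrier gene Crabp2. All 9 names matched 1 gene each. The set was selected on the higher Vdr level in SM positive cells, which was already known, and filled with genes of the same pathways. The differences of the 9 genes between the fractions are therefore given as a description, without p-values. Statements that a member passed or missed the threshold, and its intervals, are likewise a description. They support nothing beyond themselves.

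All libraries came from the same resistant line, derived in mice from lesions that followed surgery under axitinib at 100 mg/kg/day and then kept in culture with 0.5 µM axitinib, an inhibitor of VEGF receptor kinases. The SM positive fraction held cells with high signal from C12FDG, a β-galactosidase substrate that fluoresces once cleaved, and the SM negative fraction held cells with low signal. Each fraction had 3 poly(A) RNA libraries, numbered 1 to 3, and both fractions carried the resistance and the drug, so no untreated or sensitive cells enter the comparison. Nothing in the labels says that the libraries came from separate cultures or sorts, so the spread between them may be technical. In bulk libraries, fewer expressing cells and less RNA per expressing cell cannot be told apart.

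Vitamin D acts through Vdr, a nuclear receptor that pairs with a retinoid X receptor (RXR) on DNA when it binds calcitriol, the active hormone. Cyp27b1 makes calcitriol from its circulating precursor, and Cyp24a1 breaks it down and is itself among the most strongly induced Vdr targets in many tissues. Retinoic acid, made from vitamin A by retinol and retinal dehydrogenases, acts through the retinoic acid receptors (RARs), which also pair with RXR. Crabp2 carries retinoic acid to the RARs, Cyp26 enzymes degrade it, and Rarb is a classic direct target of the pathway. In mammary epithelium both hormones are known for restraining growth and favouring differentiation.

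The receptors' start regions are shown because Vdr is the member on which the set was selected and Rarb carries the textbook retinoic acid response element, although no binding was measured here. Upstream sequences were taken from RefSeq (GRCm38.p6), which gave 13 start sites for 7 of the 9 genes, and none was printed for Cyp24a1 and Crabp2. Capitals mark matches to the GC box GGGCGG, or to a direct repeat of hexamers with a spacing of 3 bases (DR3, the classic Vdr arrangement) or 5 bases (DR5, a classic RAR arrangement). The hexamers searched, in any combination, were AGGTCA and its variants AGTTCA as well as GGTTCA and also GGGTCA. Both strands were searched over the 250 bases before each start, and the motifs were not required to avoid overlap.
Vdr, chr15:97908297-97908546, minus strand: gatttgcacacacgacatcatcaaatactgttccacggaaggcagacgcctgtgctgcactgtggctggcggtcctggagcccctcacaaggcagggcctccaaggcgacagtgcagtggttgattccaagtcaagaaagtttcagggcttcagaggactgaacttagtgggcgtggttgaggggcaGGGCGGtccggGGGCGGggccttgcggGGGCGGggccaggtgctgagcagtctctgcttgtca
Rarb, chr14:16575477-16575726, minus strand: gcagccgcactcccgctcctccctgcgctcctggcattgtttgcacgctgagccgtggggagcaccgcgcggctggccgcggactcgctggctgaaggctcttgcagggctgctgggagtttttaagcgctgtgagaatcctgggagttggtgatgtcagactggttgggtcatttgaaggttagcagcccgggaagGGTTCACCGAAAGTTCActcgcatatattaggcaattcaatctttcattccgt

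The Vdr upstream region held 3 GC boxes, at bases -63 to -58, -52 to -47 and -36 to -31 from the start, and no DR3 or DR5. The Rarb region held 1 DR5, at bases -53 to -37, and no GC box. The DR5 occurred in 1 of the 13 members' regions and in 0.0883% of 32851 RefSeq regions of the same length. GC boxes occurred in 8 of the 13 and in 32.7% of all regions, and a DR3 in none of the 13 and in 0.0396% of all. Both printed regions lie inside the annotated span of their gene, 97854425 to 97910630 for Vdr and 16430839 to 16819156 for Rarb. Each therefore precedes an internal start and not the outermost annotated end of the gene. The 13 are not separate regions. Those of Rara at 98937446-98937695 and 98937468-98937717 overlap and hold the same 4 GC boxes. A match is a stretch of letters and not a bound site, and a region without one may hold elements elsewhere.

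The libraries held 18733801 to 26533528 counts, and 14038 genes passed the filter on low counts. Levels are CPM, counts scaled to a common library total by TMM, as mean ± SD over n = 3 libraries. Of all genes tested, 1.35% passed an adjusted p of 0.05 with edgeR's quasi-likelihood test without the replicate block, 1.14% higher and 0.214% lower in SM positive cells. With the replicate number as a block 14.1% passed, 8.52% higher and 5.6% lower. At an unadjusted p under 0.05 in edgeR without the block 8.04% were higher and 5.58% lower. DESeq2 called 1.91% higher and 0.47% lower at an adjusted p under 0.05, and limma-voom 0.812% and 0.164%. The carcinoma markers were present in every library, led by Krt18 and Krt8, and the 6 epithelial markers summed to 2980 to 3167 CPM in SM positive and 3103 to 3322 CPM in SM negative libraries.

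Of the 9 members, 7 passed the filter on low counts, and Rarb and Cyp24a1 did not. Without the block 1 of the 7, Vdr, passed the threshold as higher in SM positive cells (1.14% of all genes did), and with the block 4 did, Vdr, Rxra, Rarg and Crabp2 (8.52% of all genes). Since the set was selected on this contrast, nothing is read from these counts. None was lower past the threshold in either fit. The median log2 change of the 7 was 0.13, and that of all genes tested was -0.001. In Vdr, Rxra and Rarg every SM positive library lay above every SM negative one, as it did in 10.4% of all genes tested; the reverse order was seen in none of the 7 and in 9.47% of all genes.

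**Figure D1:**
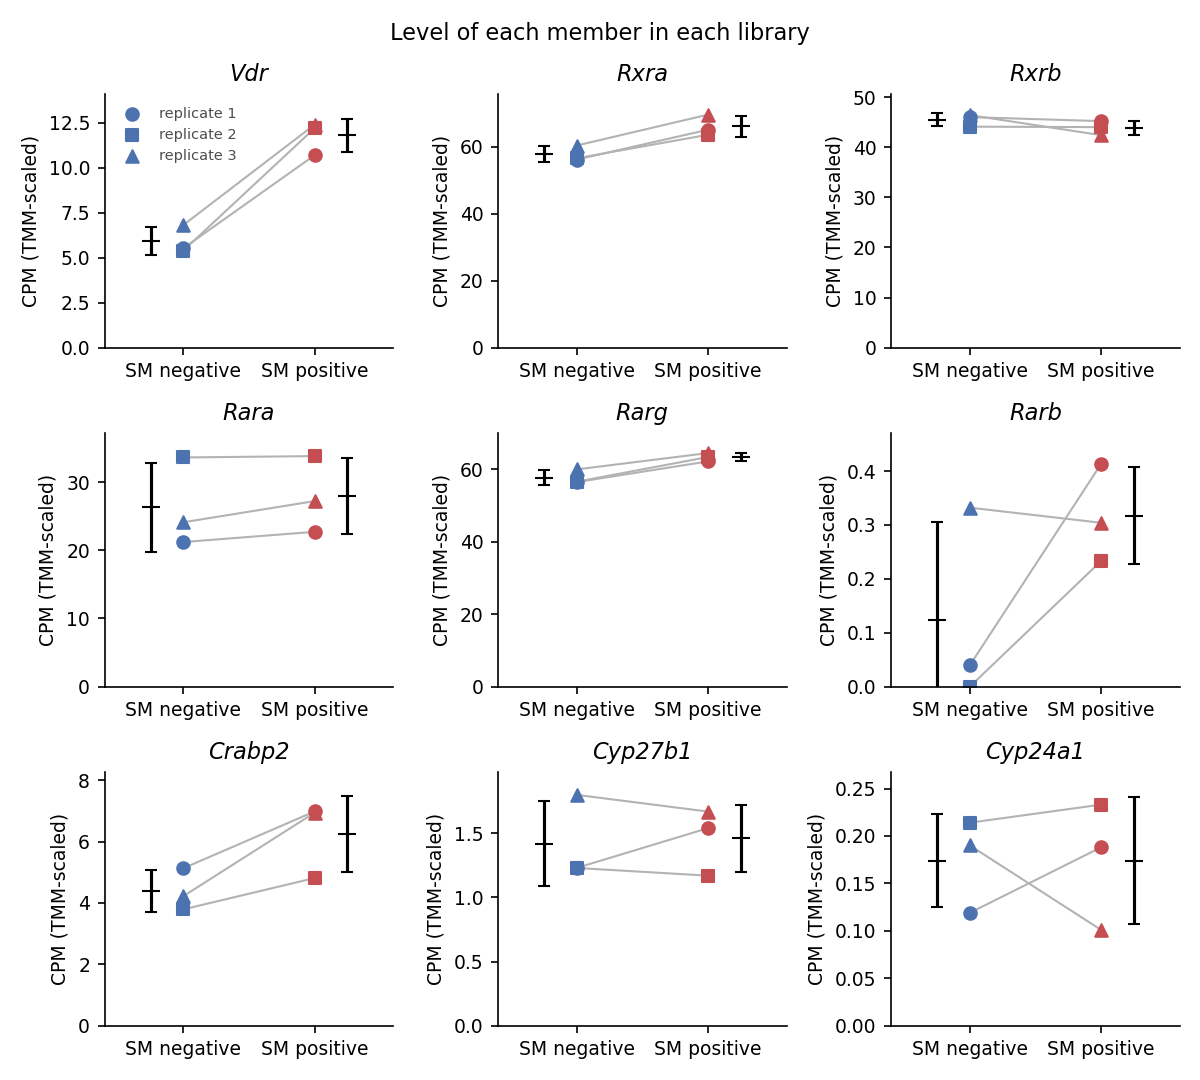
Level of each of the 9 genes (vertical axis, TMM-scaled CPM, starting at 0) in the 3 SM negative (blue) and 3 SM positive (red) libraries, with grey lines joining libraries of the same replicate number and black bars giving the mean ± SD of each fraction, the Rarb bar being cut at 0. Vdr lies at 5.4 to 6.82 CPM in SM negative and 10.7 to 12.4 CPM in SM positive libraries, while the 2 Rara libraries numbered 2 sit together above the other 4.

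Vdr (ENSMUSG00000022479.15, chromosome 15, 97854425 to 97910630, minus strand) encodes the receptor for calcitriol. It stood at 5.53, 5.4 and 6.82 CPM in SM negative libraries 1, 2 and 3 and at 10.7, 12.2 and 12.4 CPM in SM positive libraries 1, 2 and 3. The fractions did not overlap. The counts behind these levels were 101 to 144 and 244 to 286 per library. The difference was 1.99-fold, a log2 change of 0.99 ± 0.125 (SE, 95% interval 0.71 to 1.27), and within replicate numbers 1, 2 and 3 it was 0.94, 1.17 and 0.85. Without SM negative replicate 2 the log2 change was 0.93 and missed the threshold. No 31-base stretch of its transcripts occurs in another annotated gene, and no annotated exon overlaps its exons.

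The RXR partners differed little. Rxra (chromosome 2, 27676440 to 27762957, plus strand) encodes RXRα, the form most often paired with Vdr and the RARs in epithelia. It stood at 56.1, 56.5 and 60.3 CPM in SM negative and 65.0, 63.5 and 69.5 CPM in SM positive libraries. These ranges did not overlap, with a gap between them smaller than the range within SM positive libraries. The log2 change was 0.20 ± 0.0624 (SE), and with the replicate block it was 0.20 ± 0.0442 and passed the threshold, though it did not when pair 1 was left out (0.18). Rxrb (chromosome 17, 34031812 to 34038399, plus strand), which encodes the broadly expressed RXRβ, stood at 46.0, 44.1 and 46.4 CPM in SM negative and 45.2, 44.0 and 42.4 CPM in SM positive libraries. Its fractions overlapped, and its log2 change of -0.05 had a 95% interval of -0.19 to 0.09. The third RXR gene, Rxrg, had no count in any library, which allows up to 0.113 to 0.16 CPM from 3 counts, a limit that covers counting error only.

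The RAR genes held separate patterns. Rarg (chromosome 15, 102234938 to 102257517, minus strand), whose product RARγ is common in epithelia, stood at 56.4, 56.5 and 59.9 CPM in SM negative and 62.1, 63.3 and 64.4 CPM in SM positive libraries. The fractions did not overlap. The log2 change was 0.13 ± 0.0575 (SE), and with the block it was 0.14 ± 0.0446 and passed the threshold, though it did not when any of the 3 pairs was left out. Rara (chromosome 11, 98927818 to 98974942, plus strand) encodes RARα, which is itself widely expressed. It stood at 21.2, 33.6 and 24.1 CPM in SM negative and 22.7, 33.8 and 27.2 CPM in SM positive libraries. Both libraries numbered 2 were the highest, so Rara varied more with replicate number than with fraction. Its log2 change was 0.09 with a 95% interval of -0.38 to 0.56, and the block narrowed the interval to -0.04 to 0.22.

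Rarb (chromosome 14, 16430839 to 16819156, minus strand), shown above with its DR5, was close to absent. It had 1, 0 and 7 counts in SM negative libraries 1, 2 and 3 and 11, 5 and 6 counts in SM positive libraries. The fractions overlapped because SM negative library 3 had more counts than 2 SM positive libraries. With so few counts no difference could be detected, and Rarb was tested only where no filter was applied, without passing. Exons of Top2b and Gm48162 overlap it on the opposite strand. Other genes share 36% of its stretches of 31 bases, counted on either strand, so that share may include these same overlaps. Its few counts may include reads of those genes.

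**Figure D2:**
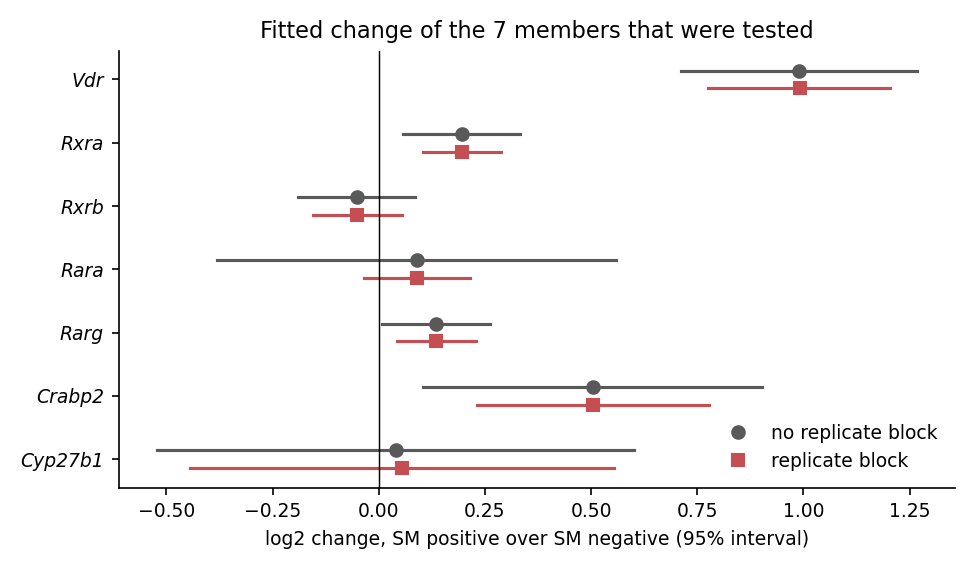
Fitted log2 change, SM positive over SM negative, with its 95% interval, for the 7 genes that passed the filter on low counts, without (grey circles) and with (red squares) the replicate number as a block. Vdr stands at 0.99 and the other receptors lie between -0.05 and 0.20, and the Rara interval is the one that shortens most with the block.

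The hydroxylases that make and destroy calcitriol were low and did not separate the fractions. Cyp27b1 (chromosome 10, 127048250 to 127053006, plus strand) stood at 1.23, 1.23 and 1.8 CPM in SM negative and 1.54, 1.17 and 1.67 CPM in SM positive libraries. The ranges overlapped almost fully. The log2 change was 0.04 with a 95% interval of -0.52 to 0.60, which leaves room for sizeable changes either way, and its sign turned in 4 of the 6 fits without 1 library. Cyp24a1 (chromosome 2, 170482708 to 170497145, minus strand) had 3, 4 and 4 counts in SM negative and 5, 5 and 2 counts in SM positive libraries, or 0.174 ± 0.049 and 0.174 ± 0.0671 CPM. No difference was detectable at this depth in this Vdr target, and an exon of Pfdn4 overlaps it on the opposite strand.

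Crabp2 (chromosome 3, 87948666 to 87953376, plus strand), which hands retinoic acid to the RARs, stood at 5.13, 3.79 and 4.22 CPM in SM negative and 6.98, 4.81 and 6.94 CPM in SM positive libraries. SM positive library 2 lay below SM negative library 1, so the fractions overlapped, but each SM positive library lay above the SM negative library of its own number, by 0.44, 0.34 and 0.71 on the log2 scale. The log2 change was 0.50 ± 0.18 (SE), and with the block it was 0.51 ± 0.131 and passed the threshold. It did not pass in the blocked fits without pair 1 or pair 3, where it was 0.54 and 0.40.

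Dividing CPM by the exon length of each gene gives rough levels for comparison between genes. The length covers all annotated exons of a gene, whichever transcripts the cells held. Close ranks, such as Rxra against Rxrb, and the ratio between these genes therefore depend on it. In SM negative cells the order was Rarg (13.5 ± 0.474 CPM per kb), Rxrb (11.4 ± 0.313), Rxra (10.6 ± 0.426), Rara (6.02 ± 1.49), Crabp2 (3.31 ± 0.518), Vdr (1.05 ± 0.14), Cyp27b1 (0.552 ± 0.128), Cyp24a1 (0.0489 ± 0.0138) and Rarb (0.0235 ± 0.0344). The last pair overlapped library by library, while the other neighbours did not. In SM positive cells Rxra (12.1 ± 0.577) stood above Rxrb (11 ± 0.353), Vdr reached 2.08 ± 0.16, and the order was otherwise the same down to Cyp27b1 (0.567 ± 0.101). There Rara and Crabp2 came within each other's range (6.39 ± 1.27 and 4.72 ± 0.939), as did Rarb and Cyp24a1. The ratio of Rxra to Rxrb per kb was 0.887, 0.933 and 0.946 in SM negative and 1.04, 1.05 and 1.19 in SM positive libraries. The median of all genes tested was 5.9 and 6.01 CPM per kb in the respective fractions, so Vdr lay at percentile 18.2 and 27.5 of tested genes while Rarg lay at 71 and 73.1.

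**Figure D3:**
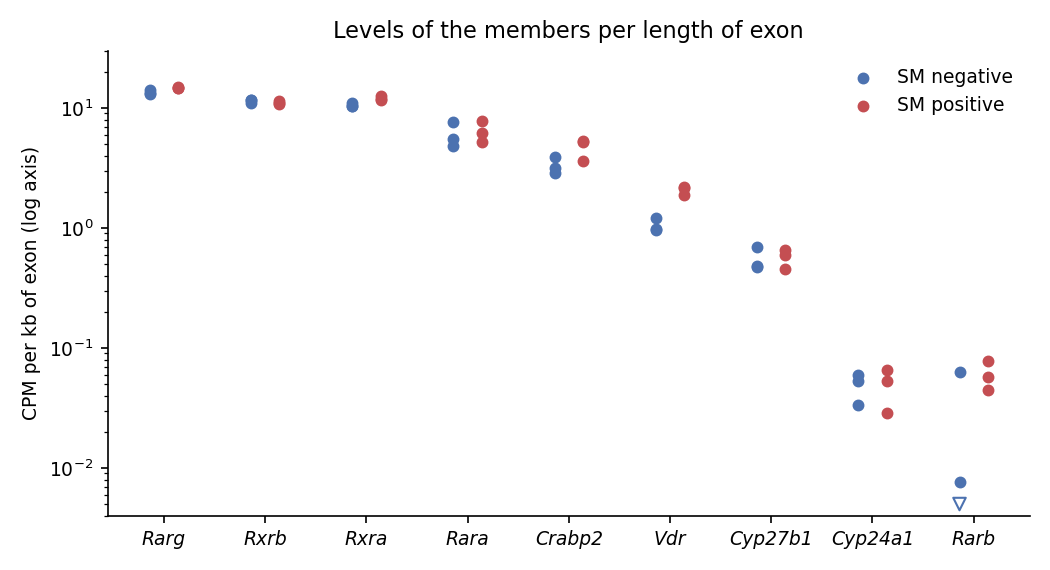
Level of each of the 9 genes per kb of exon (vertical axis, log scale, CPM per kb) in the SM negative (blue) and SM positive (red) libraries, ordered by the SM negative mean, with an open triangle for the SM negative library with no Rarb count. Rarg, Rxrb and Rxra lie near 11 to 15 CPM per kb, Vdr near 1 to 2, and Cyp24a1 and Rarb below 0.1.

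Beyond the 9 members, genes that carry out vitamin A oxidation and genes that answer to retinoic acid were read from the same fit. The lists were chosen with earlier results of these data known, and some of them also hold Crabp2, Rarb, Cyp24a1 or Cyp27b1. Of 27 genes for retinoid uptake, oxidation and breakdown, 14 were tested, 2 rose and none fell (1.14% and 0.214% of all genes). With the block 6 rose and 1 fell (8.52% and 5.6% of all genes), and the median log2 change of the 14 was 0.19 against -0.001 for all genes tested. At an unadjusted p under 0.05 in edgeR without the block 7 were higher and none lower (8.04% and 5.58% of all genes), and DESeq2 and limma-voom each called 2 higher and none lower. The pair that rose without the block, Rdh10 and Dhrs9, both encode dehydrogenases that turn retinol into retinal, the first step towards retinoic acid.

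Rdh10 stood at 32.4, 29.3 and 28.8 CPM in SM negative and 42.9, 41.0 and 38.8 CPM in SM positive libraries, without overlap. It rose 1.36-fold, a log2 change of 0.44 ± 0.0756 (SE, edgeR adjusted p = 0.0247), and the call ended in 5 of the 6 fits without 1 library, where the adjusted p reached 0.112; it held only without SM negative replicate 1. Dhrs9 stood at 34.4, 37.2 and 34.5 CPM in SM negative and 49.5, 49.3 and 47.4 CPM in SM positive libraries, again without overlap. It rose 1.38-fold (log2 change 0.46 ± 0.0648 SE, edgeR adjusted p = 0.0101), and its call ended without SM negative replicate 1 or 3 (adjusted p up to 0.0567). With the block and all libraries, the edgeR adjusted p was 8.57e-06 for Rdh10 and 2.72e-06 for Dhrs9.

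Other retinoid genes passed with the block and not in the filtered edgeR fit without it. Rdh11, a retinal reductase that also acts on retinol, stood at 163 ± 16 CPM in SM negative and 193 ± 22.1 CPM in SM positive cells, with a blocked log2 change of 0.24 ± 0.0395 (SE, edgeR adjusted p = 0.00028). Cyp26b1, which degrades retinoic acid, had 5 to 12 counts in SM negative and 18 to 22 counts in SM positive libraries (blocked log2 change 1.13 ± 0.354 SE, edgeR adjusted p = 0.0368). Dhrs3, which turns retinal back into retinol and was named after its values were seen, had a blocked log2 change of 0.96 ± 0.287 (SE, edgeR adjusted p = 0.0292). Fabp5, a fatty acid carrier that also takes retinoic acid and delivers it to another receptor, was the 1 gene that fell, from 176 ± 18.1 to 162 ± 14.7 CPM (blocked log2 change -0.12 ± 0.041 SE, edgeR adjusted p = 0.0471). Without the block the adjusted p of these 4 genes was 0.278, 0.175, 0.29 and 0.591. With no filter and no block Rdh11 passed (edgeR adjusted p = 0.00779) and the others did not (0.136 to 0.593). In blocked fits without 1 pair, the Cyp26b1 and Dhrs3 calls ended whichever pair was left out (adjusted p = 0.124 to 0.153 and 0.0697 to 0.221). The Fabp5 call ended without pair 1 or 3 (0.35 and 0.205), and Rdh11 passed in all 3 such fits.

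The retinal dehydrogenases that make retinoic acid were scarce. Aldh1a2 had no count in any library and Aldh1a1 at most 2, while Aldh1a3 had 16 to 24 counts in SM negative and 10 to 18 counts in SM positive libraries (log2 change -0.43 ± 0.285 SE, edgeR adjusted p = 0.567). Cyp26a1, the other main retinoic acid hydroxylase, had 8, 8 and 7 counts in SM negative and 2, 2 and 5 counts in SM positive libraries and did not pass the filter. Every SM negative library held more Cyp26a1 counts than any SM positive one, an order seen in 9.47% of all genes tested. Cyp26b1 had the opposite order, seen in 10.4%, and the contrast between these genes was not tested.

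**Figure D4:**
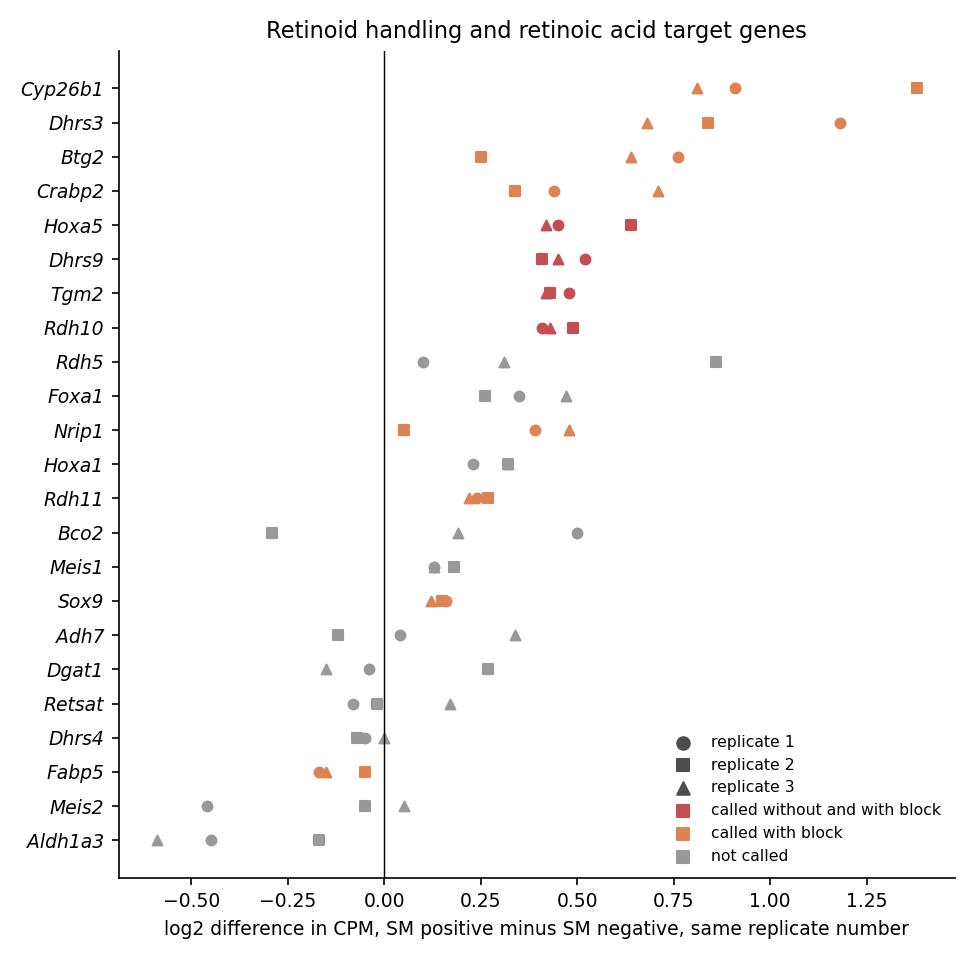
Log2 difference in CPM, SM positive minus SM negative, between libraries of the same replicate number (horizontal axis; circle, square and triangle for replicates 1, 2 and 3) for the 23 tested genes of retinoid handling and retinoic acid response. Red genes passed the threshold without and with the block, orange ones with the block alone and grey ones in neither fit; Rdh10, Dhrs9, Tgm2 and Hoxa5 lie between 0.41 and 0.64 in every pair.

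Of 21 retinoic acid target genes, 12 were tested, 2 rose and none fell (1.14% and 0.214% of all genes). With the block 8 rose and none fell (8.52% and 5.6% of all genes), and the median log2 change was 0.40 against -0.001 for all genes tested. At an unadjusted p under 0.05 in edgeR without the block 6 were higher and none lower (8.04% and 5.58% of all genes), and DESeq2 and limma-voom each called 2 higher. Cyp26b1, Dhrs3 and Crabp2 stand in this list too and rose with the block in both lists, so the counts of the lists are not separate. Crabp2 is also a member of the selected set. As the lists were chosen with earlier results known, their counts and medians are a description. Tgm2, the tissue transglutaminase, stood at 131, 123 and 130 CPM in SM negative and 182, 166 and 174 CPM in SM positive libraries, without overlap. It rose 1.36-fold (log2 change 0.44 ± 0.0571 SE, edgeR adjusted p = 0.0072), with an adjusted p of 0.0538 without SM negative replicate 2; exons of Rprd1b and Gm20412 overlap it on the opposite strand. Hoxa5, a homeobox factor of mammary epithelium, rose from 12.6 ± 0.993 to 17.9 ± 0.974 CPM (log2 change 0.50 ± 0.0939 SE, edgeR adjusted p = 0.0316), a call that held in 1 of the 6 fits without 1 library, that without SM positive replicate 1. Btg2, an antiproliferative gene, rose with the block alone (blocked log2 change 0.55 ± 0.102 SE, edgeR adjusted p = 0.00112), its libraries numbered 1 being the lowest of each fraction.

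Of 22 vitamin D target genes, 10 were tested, and 9 had no count in any library. Without the block 1 rose, Spp1, and none fell (1.14% and 0.214% of all genes). With the block 3 rose, Spp1, Atp2b1 and Dusp10, and 1 fell, Txnip (8.52% and 5.6% of all genes). Spp1, which encodes the secreted phosphoprotein osteopontin, stood at 707, 690 and 697 CPM in SM negative and 970, 888 and 893 CPM in SM positive libraries, without overlap. Its log2 change was 0.39 ± 0.0537 (SE, edgeR adjusted p = 0.00962), and the call ended without SM negative replicate 2 or 3 (adjusted p = 0.0538 and 0.0541). An exon of Gm42793 overlaps Spp1 on the same strand. Atp2b1, a plasma membrane calcium pump, stood at 192 ± 19.9 and 214 ± 8.16 CPM (blocked log2 change 0.16 ± 0.0441 SE, edgeR adjusted p = 0.0175). Dusp10, a phosphatase of stress kinases, had a blocked log2 change of 0.20 ± 0.0659 (SE, edgeR adjusted p = 0.0469). The blocked call of Dusp10 ended whichever pair was left out (adjusted p = 0.139 to 0.178), and that of Atp2b1 without pair 1 or 3 (0.19 and 0.223). Txnip, a thioredoxin inhibitor, stood at 16.4, 18.7 and 18.7 CPM in SM negative and 10.3, 13.5 and 13.5 CPM in SM positive libraries (log2 change -0.53 ± 0.119 SE, edgeR adjusted p = 0.0629, and 8.57e-05 with the block). Without the block edgeR placed it lower at an unadjusted p of 0.00111, DESeq2 called it lower (adjusted p = 0.0106) and limma-voom did not (adjusted p = 0.0798). With no filter and no block edgeR called it lower (adjusted p = 0.000327). Gm15441 overlaps Txnip on the opposite strand. The intestinal calcium channel gene Trpv6 had 1 to 5 counts in SM negative and 4 to 12 in SM positive libraries and did not pass the filter. The median log2 change of the 10 was 0.08, against -0.001 for all genes tested.

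Of 10 vitamin D supply and breakdown genes, 4 were tested and none passed in edgeR without the block, at an unadjusted p under 0.05, or in DESeq2 or limma-voom. With the block Dhcr7 and Sc5d, which act in late cholesterol synthesis around the vitamin D precursor, rose (blocked log2 change 0.16 ± 0.0454 SE and 0.16 ± 0.0407 SE, edgeR adjusted p = 0.024 and 0.011, where 8.52% of all genes rose). The Dhcr7 call ended whichever pair was left out (adjusted p = 0.0747 to 0.213) and the Sc5d call without pair 1 or 3 (0.182 and 0.0859). Cyp2r1, the main enzyme of the first hydroxylation, had no count in any library.

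Other nuclear receptors that pair with RXR showed no calls. Of 13 genes, 7 were tested and none passed in either edgeR fit, in DESeq2 or limma-voom, or at an unadjusted p under 0.05 without the block, with a median log2 change of 0.07. All 18 coregulator genes were tested, and none passed in the filtered edgeR fit without the block, in DESeq2 or in limma-voom. At an unadjusted p under 0.05 in that edgeR fit 4 were higher and 1 lower (8.04% and 5.58% of all genes). With no filter and no block Nrip1 passed as higher (edgeR adjusted p = 0.00818). With the block 4 rose and 1 fell (8.52% and 5.6% of all genes). Those that rose included the corepressor exchange factor Tbl1xr1 (57 ± 3.69 to 66.3 ± 0.866 CPM, blocked edgeR adjusted p = 0.00372), the coactivator Ncoa1 (adjusted p = 0.014) and the ligand-dependent corepressor Nrip1 (adjusted p = 0.0161), which is also a retinoic acid target. Carm1, a coactivator methyltransferase, fell from 115 ± 5.1 to 104 ± 2.78 CPM (blocked edgeR adjusted p = 0.0326); Yipf2 overlaps it on the opposite strand. Kat2b, an acetyltransferase named after its values were seen, was the other gene that rose. In blocked fits without 1 pair, the Ncoa1 call ended in all 3 (adjusted p = 0.0627 to 0.101). The Nrip1 and Carm1 calls ended without pair 1 (0.172 and 0.113) or 3 (0.113 and 0.309), and the Tbl1xr1 call without pair 3 (0.0724).

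Among 9774 symbol-bearing genes with a mean of at least 5 CPM, those whose log2 CPM followed Vdr most closely over the 6 libraries were Smg6 (Pearson r = 0.9986), Hoxa5 (0.9977), Gbp9 (0.9936) and Evi5l (0.9924). Smg6 encodes a nuclease of nonsense-mediated decay and Gbp9 an interferon-inducible GTPase. These r values are descriptions over 6 libraries that share the split between fractions. Smg6 stood at 70.1 ± 3.52 in SM negative and 94.1 ± 2.33 CPM in SM positive cells, and Gbp9 at 19.1 ± 0.975 and 27 ± 1.1. Both were picked for likeness to Vdr, so their difference between the fractions is given as a description, without p-values. Exons of Gbp4 and Gbp8 overlap Gbp9 on the same strand.

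Markers of other cell types were low. The 7 fibroblast markers summed to 5.42 to 7.7 CPM in SM positive and 4.22 to 4.78 CPM in SM negative libraries, most of it Pdgfra, followed by Col1a1, with Lum and Col3a1 at 0. The 6 macrophage markers summed to 4.9 to 6.38 and 6.57 to 8.81 CPM, mostly Cd68, followed by Csf1r, with Adgre1 at 0. Of the fibroblast markers 2 were tested, and of the macrophage markers 1. With the block Pdgfra was higher and Cd68 lower in SM positive cells (edgeR adjusted p = 0.0423 and 0.0148). Epcam, Krt19 and Cldn4 of the 6 epithelial markers were also lower with the block, where 8.52% of all genes were higher and 5.6% lower. None of these markers passed without the block (edgeR adjusted p = 0.16 to 0.326), and Krt19 was low, at 0.887 to 2.23 CPM. Endothelial markers (chiefly Pecam1 and Cdh5), lymphocyte markers (chiefly Cd3d, with 1 count at most per library) and adipocyte markers (chiefly Fabp4, with Plin1 next) summed to at most 0.427, 0.101 and 0.608 CPM. The part of these shifts in the Vdr and retinoid differences was not tested.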

How the data were processed

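Per the labels, the authors isolated RNA from sorted cells, treated it with DNase and made stranded poly(A) libraries. They deposited expected counts for every gene. RSEM 1.3.1, STAR 2.6.0a and FastQC 0.11.5 are listed, beside GRCm38 and without roles, in the submitters' processing notes. Which annotation release and strand setting were used is not given in the sources at hand, so antisense reads may not be separated. Between 13.5% and 14.4% of a library's values were not whole, and all were rounded. Symbols and exon lengths came from GENCODE M21, which matched 99.8% of identifiers.

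Genes were filtered with filterByExpr, scaled by TMM and tested with edgeR 4.0.16 (R 4.3.3; robust quasi-likelihood F test, Benjamini-Hochberg adjustment over 14038 genes, threshold 0.05). Adjusted p-values come from this fit, or from a second one that adds replicate number as a block where the text says "blocked" or "with the block". Standard errors are the log2 change divided by the root of F. Alternatives were the block, DESeq2 1.42.0, limma-voom (limma 3.58.1), RLE size factors, library totals, no filter, over 1 CPM in 3 libraries, and leaving out each library or blocked pair. The members and lists were chosen with earlier results of these data known.

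Deviations from the fraction means correlated at 0.22, 0.28 and 0.196 between libraries with the same number, all over 0.1. Between libraries with different numbers they correlated at -0.175 to -0.043. Deviations from a fraction's own mean cancel within that fraction, so these negative values largely follow from the positive ones and are not separate evidence. On the same-number values libraries were paired by number in the blocked fit and in the differences within replicate numbers. The fit without the block does not use the pairing. The labels do not say what a number marks. No libraries agreed within sampling noise (chi-square per degree of freedom at least 6.37).

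Named genes were the 9 members; Rxrg, Cyp26a1, Cyp26b1, Aldh1a1, Aldh1a2, Aldh1a3, Cyp2r1, Fabp5 and Trpv6; up to 3 genes each way per list and fit, by smallest p, with a mean of at least 1 CPM; the 2 most abundant genes of each marker list; and the 5 genes most like Vdr. The values of a few genes that this rule names are not reported here.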

Additional observations from a re-analysis of the deposited data

How the results depend on the processing

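The log2 change of Vdr was 0.907 to 1.103 over the 16 other settings and missed the threshold in 1, without SM negative replicate 2 (0.93). As the set was selected on the Vdr difference in these data, the calls of members are a description and not support for it. With the replicate block 1982 of 14038 genes passed in place of 190 (14.1% and 1.35%). Of the 7 members tested, 4 passed in place of 1, and of 59 other pathway genes 21 in place of 5. With no filter 663 of 25873 genes and 9 of 77 pathway genes passed, and with DESeq2 334 of 14038 genes. Without each library in turn, 25 to 123 genes of 14229 to 14289 tested passed, with 0 to 1 of 7 members and 1 to 4 of 59 pathway genes. In blocked fits without pair 1, 2 or 3, 705, 1793 and 886 genes passed, of 14017, 14247 and 14231 tested. Members that passed in these fits were 1, 3 and 2 of 7, and pathway genes 10, 15 and 9 of 59, 59 and 58. The direction of Cyp27b1 turned in 4 fits without 1 library (range -0.062 to 0.244) and in the blocked fit without pair 1 (-0.095), and that of Rara in 2 (range -0.071 to 0.3 without 1 library). Over the 30 other named genes and 16 settings, 405 values kept direction and call, 46 gained the call, 20 lost it and 7 turned, and the causes were not tested. Depth limits Rarb, Cyp24a1, Cyp26a1, Aldh1a1 and Trpv6 to 0 to 12 counts per library.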
